A study of Mus musculus with 6 samples.

Results

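The carbonic anhydrase genes Car1, Car2, Car3, Car4, Car5b, Car12 and Car13 were followed in leukemic and normal myeloid progenitors of the mouse. These 7 genes were picked by gene name from the 16440 genes of the expression table, because Car1 had one of the largest decreases in acute promyelocytic leukemia (APL). The difference between APL progenitors and normal progenitors therefore selected them, and their values are given as a description, without a p-value. All 7 listed genes were present and all 7 passed the filter on low values, Car4 only through its APL libraries. The other 8 carbonic anhydrase genes of the table are described after them.

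The data were 6 RNA-seq libraries of cells sorted from FVB N/J mice. The 3 libraries of normal myeloid progenitors (MPs) came from Lin-Sca-1-c-Kit+ bone marrow cells, a gate that takes in granulocytic and monocytic, common myeloid, and megakaryocytic and erythroid precursors. The 3 APL libraries came from c-Kit+ leukemia cells of hMRP8-PML/RARα transgenic mice, in which a human myeloid promoter drives the fusion gene. In the study, APL cells were labelled with GFP from the retroviral vector MigR1 and grown by passage through syngeneic recipients. None of this applied to the normal MPs, so any effects of the fusion gene, the vector and the transplantation cannot be told apart. The methods put recipients of APL cells at 6 to 10 weeks of age, some of them sublethally irradiated, without saying which applied to these libraries, and the age of the mice that gave the normal MPs was not found in the labels or methods. The 3 libraries of a group are described as biological replicates, but no source used here ties each one to a separate animal, so the spread is that between libraries.

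Libraries held 22976901 to 26932323 fragments in MPs and 20608736 to 28382772 in APL before the deposited scaling. Kit, the receptor used in both sorts, was present in every library, at 10442, 10970 and 10592 scaled fragments in MPs and 5780, 5975 and 6033 in APL progenitors. Values called scaled fragments below are the deposited fragment estimates per gene, already adjusted between libraries. They compare a gene across libraries, whereas FPKM, which also divides by transcript length, was used to compare genes with each other.

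Carbonic anhydrases are zinc enzymes that interconvert carbon dioxide and water with bicarbonate and a proton, and so set how fast a cell can buffer and move acid. The family is divided by place: Car1, Car2, Car3 and Car13 act in the cytosol, Car5b in mitochondria, and Car4 and Car12 at the outer cell surface, Car4 through a lipid anchor and Car12 through a membrane-spanning segment. Car1 and Car2 are abundant in red cells, where they serve carbon dioxide transport, and Car2 also supplies protons in osteoclasts. Car3, a form of low activity, is best known from skeletal muscle and fat.

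The start-site sequences of Car4 and Car12, the surface enzymes that were higher in APL, are printed here to show the DNA before each gene. The table of RefSeq promoters used here held 3 of the 7 genes, Car4, Car12 and Car5b. Each line gives the 250 bases before the listed start on GRCm38.p6, plus strand, 5′ to 3′, which are chr11:84957504-84957753 for Car4 and chr9:66713436-66713685 for Car12. Capitals mark the only match to a searched motif within these bases, the CACCC box read on the opposite strand.
Car4: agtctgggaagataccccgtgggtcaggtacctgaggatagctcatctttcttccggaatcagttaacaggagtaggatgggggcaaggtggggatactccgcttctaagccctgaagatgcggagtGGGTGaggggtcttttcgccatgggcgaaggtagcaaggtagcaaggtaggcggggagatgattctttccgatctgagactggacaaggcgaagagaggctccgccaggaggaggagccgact
Car12: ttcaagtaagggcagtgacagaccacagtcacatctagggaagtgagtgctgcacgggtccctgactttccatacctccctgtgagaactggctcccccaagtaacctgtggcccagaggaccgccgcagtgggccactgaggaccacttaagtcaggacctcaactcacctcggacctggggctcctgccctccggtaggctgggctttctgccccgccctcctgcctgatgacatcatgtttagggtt

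The motifs were searched on both strands of 300 bases, from 250 before to 50 after each start, in all 32851 promoters of the table. The motif CANNTG was held by 72.3% of them, the motif CACCC by 57.5%, and the motif GAGGAA by 28.3%. The motif AGGTCA was in 16.3% and the motif TATAAA in 13.6%. The motifs without a match in any of the 3 windows were GAGGAA and AGGTCA, and also AGATAA, held by 11.2%, and TGATAA, held by 9.05% of all promoters. None of the 3 matches described next overlapped another. Car4 held CACCC once, starting 123 bases before the start, and TATAAA once, at base 43 after it. Car5b held CANNTG once, at base 35 after the start, and Car12 held no match in this window. The Car4 window contained 15 CpG dinucleotides, that of Car5b 12 and that of Car12 9, beside a median of 7 over all promoters.

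Car1, the first cytosolic red-cell enzyme, was among the most highly expressed genes of normal MPs and nearly gone from APL progenitors. The gene (Entrez 12346) lies on chromosome 3 from 14766214 to 14808365 (GRCm38). Its scaled fragments were 33805, 36011 and 46309 in the MP libraries and 104, 159 and 170.3 in the APL libraries. No APL library came near an MP library, and the groups were far apart compared with their spread. The means were 38708 ± 6674 and 144 ± 35.6 (SD, n = 3 each), 268-fold lower in APL, with a log2 fold change of -8.08 (SE 0.19). Only 5 of the 14595 genes tested had a lower log2 fold change. In FPKM, Car1 ranked between 71 and 78 among 16440 genes in the MP libraries and between 7667 and 8710 in the APL libraries.

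Car2, the high-activity cytosolic enzyme, had the same shape of difference. It spans 14886426 to 14900770 on chromosome 3 (Entrez 12349). The MP libraries held 22566, 21445 and 25058 scaled fragments of Car2 and the APL libraries 94.3, 127 and 123. The lowest MP library was again far above the highest APL library. The means of 23023 ± 1849 and 115 ± 18.1 differed 200.1-fold, with a log2 fold change of -7.64 (SE 0.12), and 20 tested genes were lower still. Car2 ranked 143 to 150 by FPKM in MPs and 9289 to 9675 in APL.

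The 2 genes did not keep a fixed proportion to each other. Car1 fragments per Car2 fragment were 1.5, 1.68 and 1.85 in the MP libraries and 1.1, 1.24 and 1.38 in the APL libraries. Every APL ratio was below every MP ratio, so the Car1 signal was lower relative to Car2 as well as in absolute terms. Because bulk libraries were sequenced, fewer cells of a type and less RNA per cell cannot be told apart.

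**Figure D1:**
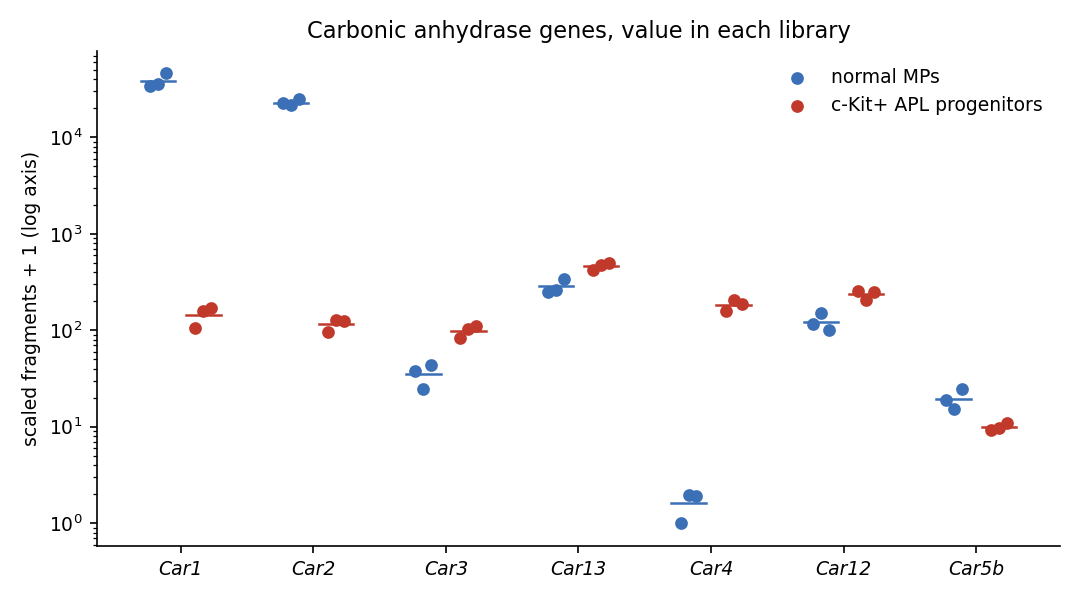
Scaled fragments plus 1 of the 7 listed carbonic anhydrase genes (log axis) in each of the 3 normal MP libraries (blue) and 3 c-Kit+ APL libraries (red), with points for libraries and lines for group means. Car1 and Car2 lie at 21445 or more in every MP library and at 170.3 or less in every APL library, whereas Car4 runs from near 0 in MPs to between 157 and 205 in APL.

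The remaining cytosolic members, Car3 and Car13, were higher in APL. Car3 (Entrez 12350, chromosome 3, 14863538 to 14872373) lies between Car1 and Car2 on the chromosome. It had 36.5, 23.8 and 42.4 scaled fragments in MPs and 81.3, 102 and 111 in APL. The lowest APL library was above the highest MP library, and the means of 34.2 ± 9.5 and 98.2 ± 15.3 gave a 2.87-fold higher value in APL (log2 fold change 1.52, SE 0.25). Even so, Car3 stayed a minor transcript, at 2.78 ± 0.396 FPKM in APL.

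Car13 (Entrez 71934, chromosome 3, 14641727 to 14663002) encodes a widely distributed cytosolic enzyme. Its scaled fragments were 251, 261 and 339 in MPs and 422, 478 and 499 in APL. The groups did not overlap, but the step was small, 1.64-fold between means of 284 ± 48.3 and 466 ± 39.8 (log2 fold change 0.72, SE 0.14). At 7.97 ± 0.536 FPKM, Car13 had the highest mean of the family in APL.

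Car4, the lipid-anchored surface enzyme (Entrez 12351, chromosome 11, 84957754 to 84966054), went from the edge of detection to a clear signal. Before scaling, the MP libraries held 0, 1 and 1 fragments of Car4, against 133, 236 and 151 in APL. The scaled values were 0, 0.952 and 0.902 in MPs and 157, 205 and 186 in APL. With 3 fragments per library taken as the limit that a count of 0 allows, the APL mean of 183 ± 24.2 was 63.9-fold above that limit in MPs. As some MP libraries held 1 fragment, this is no strict bound. The fitted log2 fold change of 6.88 (SE 0.33) is also no bound, as it moved between 4.17 and 7.50 with the processing, chiefly with the pseudocount. Counting limits cover counting error only.

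Car12, the membrane-spanning surface enzyme (Entrez 76459, chromosome 9, 66713686 to 66766845), was moderately higher in APL. Its scaled fragments were 116, 150.4 and 99.2 in MPs and 253, 205 and 248 in APL. No library of either group entered the range of the other, and the means of 122 ± 26.1 and 235 ± 26.7 differed 1.93-fold (log2 fold change 0.96, SE 0.18). Car4 and Car12 thus shared a direction, while the size differed greatly.

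Car5b, a mitochondrial enzyme (Entrez 56078, chromosome X, 163976822 to 164028010), was scarce in both populations. It had 17.8, 14.3 and 23.5 scaled fragments in MPs and 8.25, 8.67 and 9.87 in APL. The means of 18.5 ± 4.64 and 8.93 ± 0.844 gave a 2.08-fold lower value in APL (log2 fold change -0.95, SE 0.29). This was the least stable of the 7 differences. It fell below the thresholds without MP library 3 (-0.78), with a pseudocount of 10 (-0.58) and after quantile normalization (-0.25).

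By the criteria used for all genes, an adjusted p under 0.05 and a fold change over 1.5 in limma, 3 of the 7 listed genes (Car1, Car2 and Car5b) were lower in APL and 4 (Car3, Car4, Car12 and Car13) higher. Of all 14595 genes tested, 24.4% were called lower and 21.7% higher, a balance that varied with the scaling. The 2 groups of libraries did not overlap for any of the 7 genes, beside 70.9% of all genes tested. Nothing is read from these counts, since this contrast chose the genes and Car4 passed the filter only through its APL libraries. The median log2 fold change was 0.72 over the 7 genes and -0.10 over all genes tested. Within groups, MP library 3 was the highest MP library for 5 of the 7 genes and the lowest for Car12. APL library 1 was the lowest APL library for 6 and the highest for Car12, so Car12 ran opposite to most of the others within both groups.

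The 8 carbonic anhydrase genes of the table outside the listed 7 were weakly expressed apart from Car9, a membrane-spanning enzyme known as a target of the hypoxia response. Car9 had 137, 151 and 170.4 scaled fragments in MPs and 132, 135 and 129.6 in APL, which did not overlap but missed the thresholds (log2 fold change -0.20, SE 0.14, limma adjusted p = 0.24). Car5a, the other mitochondrial enzyme, was higher in APL, from 3.75 ± 1.63 to 17.6 ± 5.26 scaled fragments (log2 fold change 1.98, SE 0.36, adjusted p = 0.0011 in limma). Its MP libraries held only 6, 3.1 and 3 fragments before scaling, and the log2 fold change ranged from 1.00 with a pseudocount of 10 to 2.60 after quantile normalization, passing the thresholds in both. Its locus on chromosome 8 overlaps that of BC048644, so fragments may be divided between them. The 778 tested genes of chromosome 8 had a median log2 fold change of 0.48.

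Car5a and Car5b, both mitochondrial, thus differed in opposite directions. Car11, a related protein without the enzyme activity, was called higher at very low values, 0, 1.9 and 0.902 scaled fragments in MPs and 9.43, 2.6 and 3.7 in APL. That call was lost without MP library 1 (log2 fold change 1.26, limma adjusted p = 0.097) and without APL library 1 (1.22, adjusted p = 0.11). Car8, likewise inactive as an enzyme, was called lower with 2, 4 and 5 fragments in the MP libraries before scaling and 0, 2 and 0 in APL. Its call was lost without MP library 2 (-1.51), MP library 3 (-1.41), APL library 1 (-1.36) or APL library 3 (-1.36), and no fold is given at this depth.

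Car14, a surface enzyme whose locus overlaps Aph1a, had 15.7 ± 5.99 scaled fragments in MPs and 24.8 ± 8.74 in APL and did not pass (log2 fold change 0.63, adjusted p = 0.16 in limma). Without MP library 3 it did, at 0.90 (adjusted p = 0.048), as it did after quantile normalization (1.26, adjusted p = 0.01 in limma). Car15 and the cytosolic Car7 also did not pass, with log2 fold changes of 0.14 and 0.18 whose direction turned when 1 library was left out: -0.15 without MP library 1 and -0.34 without APL library 3 for Car15, and -0.03 without APL library 2 for Car7. After quantile normalization Car7 passed as higher (0.90, adjusted p = 0.042 in limma). The secreted enzyme Car6 had at most 3 fragments in any library and was not tested.

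Summed over the 15 genes, the FPKM of the family was 1695, 1809 and 2221 in the MP libraries and 27.9, 32.3 and 32.7 in the APL libraries. The means, 1908 ± 276 and 31 ± 2.67, differed 61.6-fold. Car1 and Car2 together made up 99.4% of the family FPKM in every MP library, but between 21.2% and 26.9% in APL. The family sum thus followed these genes almost entirely.

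Without Car1 and Car2 the family was higher in APL. The other 13 genes summed to 10.4, 11.1 and 13.2 FPKM in MPs and 22, 23.6 and 24.1 FPKM in APL, which is 2.01-fold. Cell-surface enzymes summed to 4.97 ± 0.53 FPKM in MPs and 11.2 ± 0.522 in APL, 2.25-fold more. Most of this was Car4, as the other 4 surface genes summed to 4.36, 5.25 and 5.25 FPKM in MPs and 6.09, 5.21 and 6.39 in APL, 1.19-fold more with overlapping libraries. All 5 surface genes together held 0.238% to 0.292% of the family FPKM in MPs and 34.6% to 38.3% in APL. Without Car4 the share in APL was 16.1% to 21.9%. Cytosolic enzymes still held the largest share in APL, between 57.2% and 62.8%, with Car13 alone at 25.4% to 26.4%. Thus the transcripts of APL progenitors were spread over many carbonic anhydrases at low levels, where those of MPs were nearly all Car1 and Car2.

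**Figure D2:**
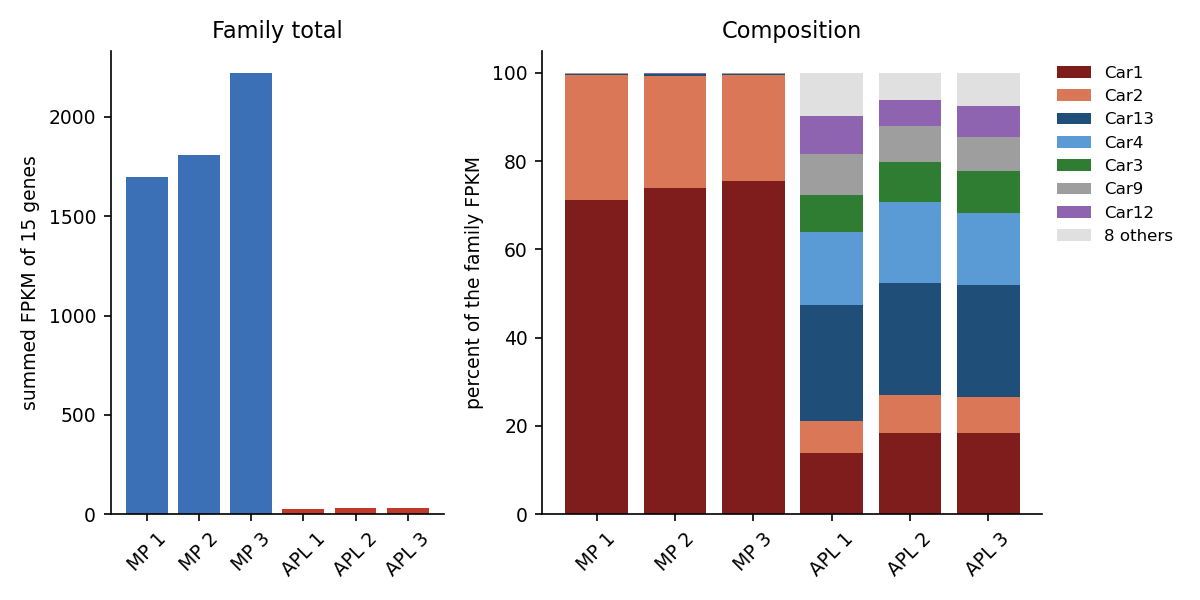
Left, summed FPKM of 15 carbonic anhydrase genes in each library (bars from 0, blue MP, red APL); right, the percent of that sum held by each gene. Car1 and Car2 fill 99.4% of the MP bars and at most 26.9% of the APL bars, where Car13, Car4, Car3, Car9 and Car12 become visible.

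The order of FPKM levels changed accordingly. In MPs it ran from Car1 (1406 ± 243) to Car2 (491 ± 35.3), Car13 (4.93 ± 0.917), Car9 (3 ± 0.294), Car12 (1.14 ± 0.244) and Car3 (0.961 ± 0.255). Of these neighbours only Car12 and Car3 overlapped in their library values. Car5b (0.21 ± 0.0548) overlapped the genes beside it, and Car4 (0.0176 ± 0.0153) came next to last. In APL the order was Car13 (7.97 ± 0.536), Car4 (5.3 ± 0.678), Car1 (5.27 ± 1.23), Car3 (2.78 ± 0.396), Car9 (2.57 ± 0.0523), Car2 (2.49 ± 0.383) and Car12 (2.19 ± 0.26). Here Car4 could not be told from Car1 by its library values, nor could Car3, Car9, Car2 and Car12 be ordered beyond the overlap of each with the next. Car5b (0.0987 ± 0.00733) followed Car11 and overlapped it.

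Car13, Car1, Car3 and Car2 lie in this order within 259044 bases of chromosome 3. Members with opposite differences thus alternated along the cluster, with Car3, which was higher in APL, between Car1 and Car2. The 7 other genes of the table within 1000000 bases were tested, and 0 were called lower and 3 higher in limma, with 2 lower at an unadjusted p under 0.05. Over all genes tested, 24.4% were called lower and 21.7% higher, and 7 genes are too few to read anything from these counts. These neighbours played no part in choosing the members. On the side of Car13, Lrrcc1 (1413 ± 107 in MPs and 1650 ± 120.4 scaled fragments in APL, log2 fold change 0.22), 1810022K09Rik (1127 ± 132 and 778 ± 77, -0.53) and the cell cycle transcription factor E2f5 (206 ± 15.4 and 143 ± 16.8, -0.53) missed the fold change of 1.5. The latter pair share a locus, and fragments may be divided between them. At least 1 left-out library and scaling to the same total brought each of these 2 past the thresholds, E2f5 at -0.59 without MP library 1 and -0.61 without APL library 3, and 1810022K09Rik at -0.59 without MP library 2.

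On the side of Car2, Gm9733 was higher in APL, from 106 ± 19.6 to 497 ± 38.7 scaled fragments (log2 fold change 2.24, SE 0.16, limma adjusted p = 2.7e-06). Sirpb1a, a signal-regulatory protein gene, was also higher (3.71 ± 1.08 and 21.1 ± 3.06, adjusted p = 2.1e-04 in limma), as was LOC100038947 (2.36 ± 2.11 and 17.3 ± 5.64, adjusted p = 0.003). Sirpb1b did not pass (1.36 ± 0.1 and 7.9 ± 5.95, adjusted p = 0.073 in limma), but did without APL library 1 (2.39, adjusted p = 0.0011), after quantile normalization (2.26, adjusted p = 0.025) and with a replicate block (1.52, adjusted p = 0.033). Genes of the Sirpb1 family have near-identical copies, which makes their values uncertain. The 692 tested genes of chromosome 3 had a median log2 fold change of -0.12, and the lowest neighbour of the cluster stood at -0.53, far above Car1 and Car2.

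**Figure D3:**
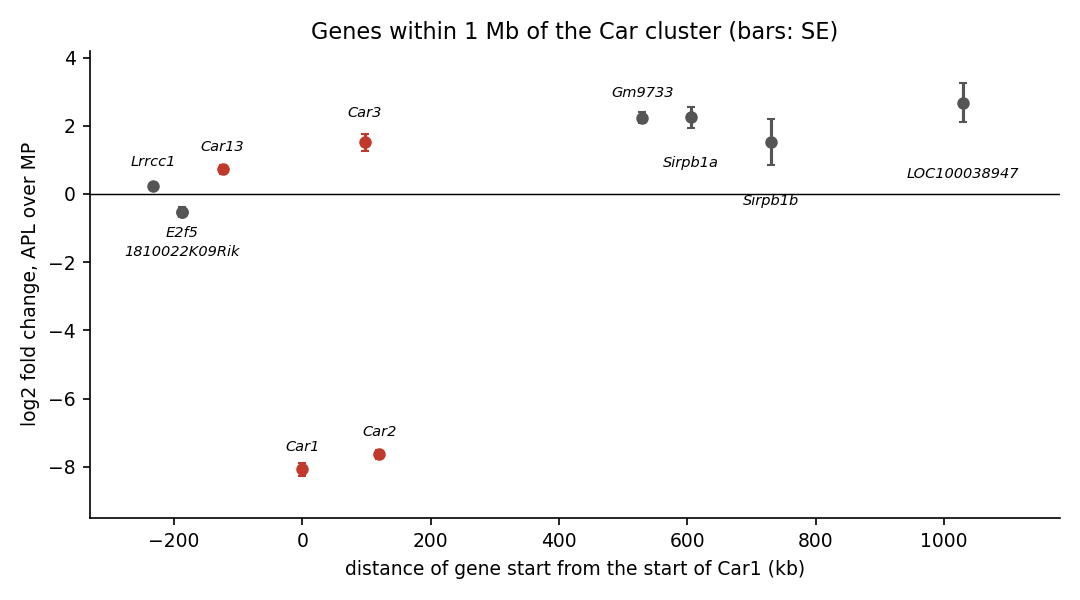
Log2 fold change (APL over MP, points with SE bars) against the distance of each gene's start from that of Car1, in kb, for the Car cluster (red) and the genes of the table within 1 Mb (grey). Car1 at -8.08 and Car2 at -7.64 stand alone below, while Car13 and Car3 and the neighbours lie between -0.53 and 2.68.

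Genes with the most similar pattern were sought among the 12534 tested genes with a mean of at least 10 scaled fragments, by the root mean square difference of log2 values over the 6 libraries after centring each gene on its mean. For Car1 the closest were Abcb4 (0.14), Ermap (0.17) and Rhag (0.19). Car2 was closest to the erythroid transcription factor Klf1 (0.09), then Atp1b2 (0.13) and Mical3 (0.15). Car2 was only the 8th closest gene to Car1, and Car1 the 16th closest to Car2, at a difference of 0.25. The likeness of Klf1 to Car2 can be read from its values, 2805, 2938 and 3726 scaled fragments in MPs and 13, 16.5 and 17.3 in APL.

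The higher members had other companions. Car4 was closest to Rerg (0.13), a RAS-related gene with 0, 0.952 and 0.902 scaled fragments in MPs and 147, 159.5 and 178 in APL, followed by Brdt (0.14) and Boc (0.19). The MP values of Rerg equal those of Car4 at the edge of detection, so that part of the likeness is within counting error. Car3 was closest to Tyrobp (0.06), an immune receptor adaptor, Car12 to the transcription factor Mitf (0.09), and Car13 to Sin3b (0.01), a corepressor component. Car5b was closest to Traf3ip2 (0.06), Agxt2l2 (0.07) and Icam1 (0.07). Akr1c12 and 1700020L24Rik (both 0.12) came next for Car3, Tmem87b (0.11) and Nr6a1 (0.12) for Car12, and Gatad1 (0.02) and Gabarapl2 (0.03) for Car13. With only 6 libraries in 2 groups, these distances mostly reflect the size of the group difference.

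Carbonic anhydrases work beside proteins that carry acid, bicarbonate, carbon dioxide and water across membranes. Of 40 such transporter genes listed, 34 were in the table and 31 were tested, with 11 lower in APL, 10 higher and 10 not called. Over all genes tested, 24.4% were called lower and 21.7% higher. Of the 11 lower genes, 5 were at or under the counting limit in every APL library. Of the 10 higher genes, 3 were at or under it in every MP library. Their median log2 fold change was -0.12, or -0.20 with genes at the counting limit in 1 group set to their bound, beside -0.10 over all genes tested. Single genes of the list reached differences of the size seen for Car1 and Car4.

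Aqp1, the red-cell water channel, had 19297, 18898 and 24966 scaled fragments in MPs and 77.8, 69.4 and 90.1 in APL. This 266-fold drop (log2 fold change -8.03, SE 0.13, limma adjusted p = 2.6e-09) matched that of Car1 in size. Rhag, the Rh-associated gas channel of the red-cell membrane, fell 238-fold from 2620 ± 286 to 11 ± 2.67 (log2 fold change -7.79). Its partner Rhd fell 62.1-fold (1838 ± 304 to 29.6 ± 4.91). The anion transporter Slc26a1 fell 96.2-fold (1207 ± 32.1 to 12.6 ± 7.05). The endomembrane sodium-proton exchanger Slc9a7 fell from 77.8 ± 10.3 to 1.79 ± 0.647, which is under the counting limit in all 3 APL libraries. Its MP mean was 21-fold above that limit.

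Slc4a1, encoding band 3, the bicarbonate-chloride exchanger of red cells, did not pass, with 53.4, 2.86 and 12.6 scaled fragments in MPs and 3.53, 7.8 and 3.7 in APL (log2 fold change -1.31, SE 0.83, limma adjusted p = 0.19). Only MP libraries 1 and 3 were above the APL range, and without MP library 2 the gene passed (-2.25, adjusted p = 0.0094). So Car1, Car2, Aqp1 and Rhag were abundant in MPs where the late red-cell exchanger was scarce.

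Among transporters that rose, Slc4a5, a sodium-bicarbonate cotransporter, went from 8.43, 9.52 and 10.8 scaled fragments in MPs to 1268, 1427 and 1335 in APL. That is 140.1-fold (log2 fold change 6.99, SE 0.15, limma adjusted p = 6.7e-09), with no overlap between groups. Slc4a8, a sodium-driven bicarbonate-chloride exchanger of the same family, rose 6.89-fold (109 ± 13.9 to 752 ± 45.5). Slc16a3, the lactate and proton exporter MCT4, rose 8.29-fold (328 ± 52.7 to 2719 ± 202). The voltage-gated proton channel Hvcn1 of phagocytes rose 4.11-fold (1512 ± 227 to 6220 ± 366). Cftr, a chloride and bicarbonate channel, was under the counting limit in MPs, and its APL mean of 8.97 ± 3.27 was 3.14-fold above that limit. The widely expressed anion exchanger Slc4a2 did not pass the fold threshold (1136 ± 65.6 and 1557 ± 87.4).

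**Figure D4:**
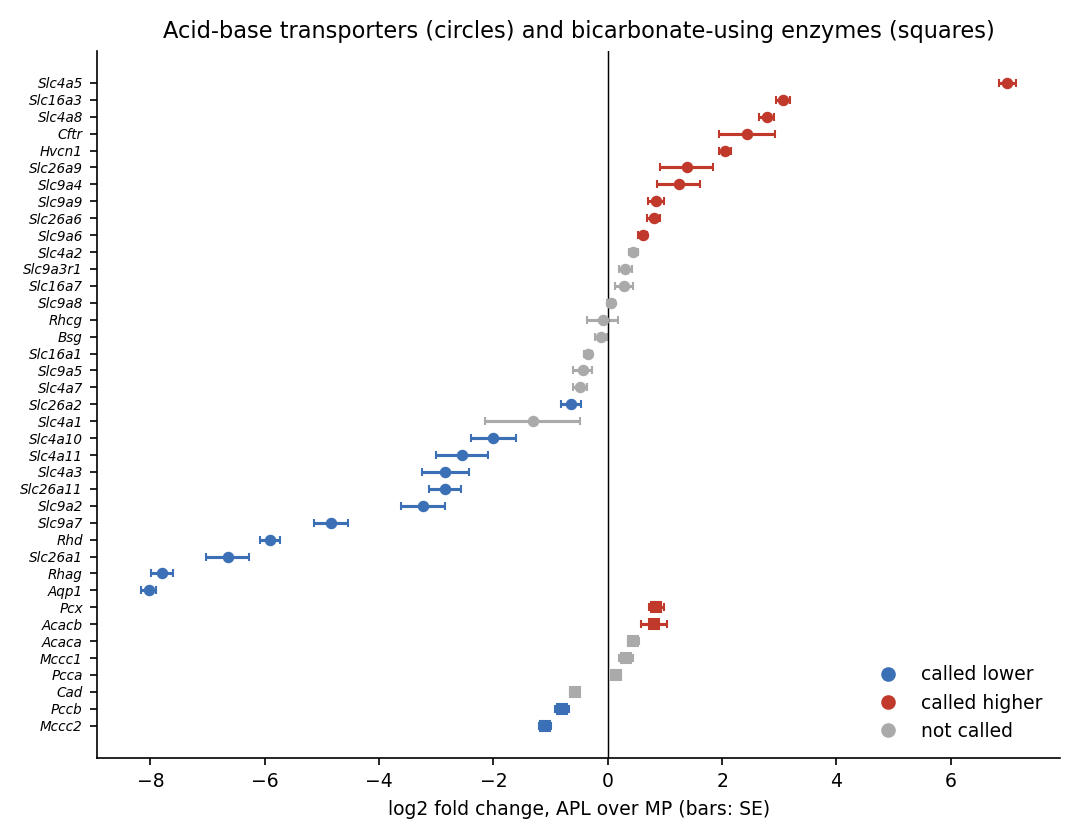
Log2 fold change (APL over MP, points with SE bars) of the 31 acid-base transporter genes tested (circles) and 8 bicarbonate-using enzyme genes (squares), coloured by call. Aqp1 (-8.03) and Rhag (-7.79) lie at one end and Slc4a5 (6.99) at the other, with 11 transporters lower, 10 higher and 10 not called.

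Enzymes that consume bicarbonate differed less, with called log2 fold changes between -1.10 and 0.85. Of 9 listed genes, 8 were tested, with 2 higher, 2 lower and 4 not called, and a median log2 fold change of 0.23. Pcx, the mitochondrial pyruvate carboxylase, rose from 327 ± 40.3 to 591 ± 72.1 scaled fragments (log2 fold change 0.85, SE 0.13, limma adjusted p = 4.0e-04). Acacb, a carboxylase of fatty acid metabolism, rose 1.74-fold. Mccc2, of leucine breakdown, fell from 457 ± 50.8 to 213 ± 4.01 (log2 fold change -1.10, adjusted p = 3.4e-05 in limma), and Pccb, of propionate breakdown, fell 1.76-fold.

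Markers of cell types were read beside the members. Of 27 erythroid genes listed, 21 were in the table and 19 were tested, of which 18 were lower in APL and 0 higher in limma (also 0 higher at an unadjusted p under 0.05), with a median log2 fold change of -6.93. The list shares Aqp1, Rhag and Slc4a1 with the transporters. Its summed level was 47790 to 57236 scaled fragments in MPs and 915 to 1155 in APL, and none of its defining markers was at 0 in every library. The regulators Gata1 (2862 ± 412 to 18.3 ± 11.3) and Klf1 (3157 ± 498 to 15.6 ± 2.3) and the receptor Epor (1347 ± 269.6 to 10 ± 2.09) fell about as far as Car1 and Car2. The globin gene Hba-a1 (642 ± 215 to 89.2 ± 40.7) and the heme enzyme Alas2 (45.4 ± 11.5 to 4.54 ± 0.764) fell less. Hba-a1 shares its locus with Hba-a2, and fragments may be divided between them. The part of erythroid precursors in the low Car1 and Car2 values was not tested.

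Of 14 granulocyte genes tested, 7 were higher in APL, 2 lower and 5 not called. Their summed level was 379916 to 471955 scaled fragments in MPs and 997898 to 1153689 in APL. Mpo rose from 222200 ± 9727 to 517840 ± 51941, a difference that missed the thresholds after quantile normalization (log2 fold change 0.24, limma adjusted p = 0.34). The elastase gene Elane rose from 48778 ± 4485 to 167955 ± 17290. The lower pair were the secondary granule genes Ltf (10906 ± 3036 to 3970 ± 545) and Ngp (16255 ± 5643 to 5658 ± 531).

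Markers were also read for the tissues in which Car3 and Car2 are best known. Adipoq, Fabp4 and Plin1 of fat and Acta1 of skeletal muscle were at or under the counting limit in every library, and the fat list summed to 214 to 429 scaled fragments in MPs and 290.4 to 323 in APL, with 2 of 3 tested genes higher and 1 lower. These were Pparg, a nuclear receptor of fat cells and macrophages (7.5 ± 3.37 to 242 ± 13.4), and Cfd, or adipsin (5.2 ± 3.59 to 34 ± 5.28), which rose, and the lipase Lpl (312 ± 107 to 21.5 ± 2.9), which fell. The muscle list summed to 84.7 to 115 scaled fragments in MPs and 67.9 to 74.6 in APL, with 1 of 5 higher and 2 lower. Within it Mylpf, above the counting limit in every library, fell from 69.2 ± 12.9 to 27.5 ± 10.9. Ckm rose from 12 ± 5.51 to 24.2 ± 6.28 (limma adjusted p = 0.047). Osteoclast genes summed to 610.3 to 1025 in MPs and 1083 to 1240 in APL. In limma 2 of 6 were higher and 0 lower (also 0 lower at an unadjusted p under 0.05). The 2 were Acp5 (265 ± 8.55 to 499 ± 28.8) and Atp6v0d2 (0.317 ± 0.55 to 5.34 ± 0.493). Acp5 and Mmp9 carried most of the sum, and every other gene of the list had a mean of at most 5.56 scaled fragments in either group. Mmp9, at 545 ± 195 and 668 ± 62.6, was not called, though it passed without MP library 3 (log2 fold change 0.61, limma adjusted p = 0.01). The part of these cells in the Car3, Car4, Car12 and Car13 values was not tested.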

How the data were processed

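Total RNA of 3 MP and 3 APL libraries, prepared with the TruSeq RNA protocol, was sequenced and deposited by the authors as one table of 16440 genes. The submitters' processing notes name CASAVA 1.8, TopHat2 2.0.6 and mm10, whereas the methods of the study name STAR with mm9, HTSeq-count and DESeq2. The tool that made the table is not given in the sources used here. All 15 carbonic anhydrase loci overlapped their RefSeq genes on GRCm38, 8 with the same start. Starts were counted from 0 in the table and are printed from 1.

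The deposited FPKM values are normalized by the authors to transcript length and library size. The deposited fragment values are a signal, fragments scaled by a factor per library. Of nonzero values under 100, 89.9% to 91.2% per library were whole multiples of the smallest step within 0.05, too few for a count test. Of 35 member values above 0 and under 1000, 34 were. Whether fragments were counted by strand is not stated.

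Scaled fragments plus 1 were log2-transformed and compared with limma 3.58.1 (lmFit, and eBayes with trend) in R 4.3.3. The 14595 genes reaching 1 in 3 or more libraries entered, without covariates, and Benjamini-Hochberg adjustment covered all of them. Calls needed an adjusted p under 0.05 and a fold change over 1.5. Fold changes of low genes are understated on this scale. Folds are ratios of mean scaled fragments. The limit for a count of 0 was 3 fragments per library, and a bound used the largest such limit in the group. It was also applied to nonzero values up to 3 fragments, where it is no strict bound. The test was also run on simulated data. Only well-expressed genes were changed there, so recovery of differences in genes with few fragments was not checked. Figures used matplotlib 3.10.9 in Python 3.11.15. Alternatives covered the filter, the pseudocount, the scaling, FPKM (pseudocount 0.1), a replicate block and each library left out.

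The members and gene lists were chosen with earlier results of these data known. The genes named were the carbonic anhydrase genes, chromosome 3 neighbours within 1000000 bases, the 5 largest called decreases and increases of each partner list, the 3 genes most like each member, and defining markers of 11 cell type lists. Kit, Itgam, Alas2, Ltf, Ngp, Pparg, Cfd, Lpl, Mmp9, Atp6v0d2, Mylpf, Ckm, Nkg7, Cd4, F13a1, Igll1, Slc4a1 and Slc4a2 were chosen after their values were seen. Protein sequences were not used here, and 1 transporter gene is not reported here.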

Additional observations from a re-analysis of the deposited data

How the results depend on the processing

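The 7 listed genes gave 94 values under 14 alternatives, of which 91 kept the direction and side of the thresholds, 3 (all Car5b) missed the thresholds, and 0 reversed. The log2 fold change ranged from -8.21 to -7.86 for Car1, -7.77 to -7.51 for Car2, 1.29 to 1.94 for Car3, 0.59 to 0.86 for Car13, 0.82 to 1.12 for Car12 and -1.12 to -0.25 for Car5b. Car4 gave a value under 10 alternatives only. The 8 other family genes were less stable: without 1 library, Car7 lay between -0.03 (APL library 2 left out, reversed) and 0.50, and Car15 between -0.34 (APL library 3, reversed), -0.15 (MP library 1, reversed) and 0.40. Requiring a value of at least 1 in all 6 libraries, with 24 transporters tested, left 7 called lower and 7 higher. FPKM, with 23 tested, left 7 lower and 6 higher. Of 844 values for 61 of the other named genes, 832 were the same, 10 newly passed the thresholds, 2 missed them and 0 reversed. Scaling every library to the same total moved the median of all genes by -0.13, turned no listed gene, and gave 4376 genes lower and 2754 higher, whereas quantile normalization gave 3277 lower and 3567 higher. Leaving out 1 library gave 2913 to 3507 genes lower and 2734 to 3256 higher. Deviations from the group mean correlated at 0.0413, 0.00365 and 0.0452 between same-numbered libraries. Differently numbered ones lay between -0.0998 and 0.0675. The shared replicate numbers thus showed no sign of pairing, but 3 libraries per group are too few to exclude it. The replicate block gave 3589 genes lower and 3164 higher. Among the single genes followed through the alternatives, it changed only the call of Sirpb1b. Values near 3 fragments limit Car4 and Car5a in MPs, Car6, Car8 and Car11.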

Other observations

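The other marker lists gave these counts among genes tested. Megakaryocyte genes were lower for 9 of 12 and higher for 1, and summed to 3969 to 5334 scaled fragments in MPs and 390.1 to 465 in APL. Eosinophil, basophil and mast cell genes were lower for 9 of 12 and higher for 1 (8362 to 11563 and 1907 to 2574). Monocyte and dendritic genes were lower for 6 of 11 and higher for 2, although their sum was higher in APL (10133 to 12526 and 30687 to 33652). That sum rested on F13a1 (4367 ± 501 to 30092 ± 1510), without which it was lower in APL (6003 to 7584 and 2327 to 2521). B lymphoid genes were lower for 4 of 7 and higher for 2, with a sum that was also higher in APL (396 to 472 and 4675 to 5412). Here Igll1 (17.8 ± 9 to 4901 ± 349) carried the sum, which was lower in APL without it (368 to 462 and 108 to 148). T and NK genes were lower for 2 of 5 and higher for 0 in limma, also 0 at an unadjusted p under 0.05 (3565 to 3830 and 3367 to 3850). Nkg7 (3428 ± 144 and 3605 ± 243) carried most of this sum. Cd4 fell from 201 ± 24.2 to 2.56 ± 2.6, and Cd3e was at or under the counting limit in every library. Endothelial and stromal genes were lower for 6 of 9 and higher for 2 (1653 to 2134 and 574 to 684). Itgam, which encodes the myeloid integrin CD11b, had 3305, 2036 and 2674 scaled fragments in MPs and 5441, 5318 and 5050 in APL.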
